A study of Mus musculus with 8 samples.

Results

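A set of 10 Wnt pathway genes was followed in NMuMG cells, a mouse mammary gland epithelial line: the ligands Wnt5a, Wnt7a, Wnt7b and Wnt10a, the Frizzled receptors Fzd1, Fzd2 and Fzd7, the co-receptors Lrp5 and Lrp6, and the feedback inhibitor Axin2. They were found by gene symbol, 10 of the 21240 genes in the table of counts. The rule names symbols and no measured value, but the genes were chosen with earlier results of these data known. Of the 10, 8 had enough counts to be tested, and Wnt5a and Wnt10a did not. The cells, of wild-type genotype per the labels and grown in medium with serum and insulin to 70 to 80% confluency, received the vehicle DMSO or BRM014, an inhibitor of the ATPase of the SWI/SNF chromatin remodelling complexes. The 4 groups were DMSO for 6 h, BRM014 for 6 h, DMSO for 30 h and BRM014 for 30 h, each with 2 libraries of total RNA. The series asked which genes need SWI/SNF activity, and the comparisons below give the change of each Wnt pathway gene with the inhibitor at each time. The dose of BRM014 is not given in the sources used here.

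Wnt ligands are lipid-modified secreted proteins that bind a Frizzled receptor together with LRP5 or LRP6. In the canonical branch this stops a destruction complex, built on the AXIN scaffolds, from degrading beta-catenin, which then acts with TCF/LEF factors on target genes that include Axin2. In the mammary gland Wnt signalling is known for its part in duct development and in the maintenance of basal stem cells.

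The libraries held 17859693 to 29955366 counts, and 11835 genes were tested. The labels call the replicates biological without saying whether they came from separate cultures, so p-values measure the spread between these libraries, which may be technical. RNA of a whole culture was measured, so fewer cells that express a gene and less RNA of it per cell cannot be told apart. The epithelial identity was only partly visible: Krt8 ranged from 1650 to 2920 CPM (counts scaled to a library of 1e6 with TMM factors), Krt18 from 2290 to 4450 and Cdh1 from 250 to 632, whereas the epithelial genes Epcam, Cldn3 and Cldn7 had no count in any of the 8 libraries. Summed over their lists, markers of endothelial cells reached at most 0.257 CPM, of adipocytes 0.298, of fibroblasts 2.77 and of leukocytes 8.11.

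The sequences just before the transcription starts of Wnt7a, Fzd7 and Fzd1 are shown because Wnt7a and Fzd7 fell with BRM014 at both times while Fzd1 moved in opposite directions at the 2 times. RefSeq windows of GRCm38.p6 matched 4 of the 10 genes (Wnt7a, Fzd7, Fzd1 and Axin2), and those of Wnt5a, Wnt7b, Wnt10a, Fzd2, Lrp5 and Lrp6 are not shown. Each line gives the 250 bases upstream of the start, 5′ to 3′ on the gene's strand, with CpG dinucleotides in capitals. The windows are chr6:91411354-91411603 on the minus strand for Wnt7a, chr1:59481897-59482146 on the plus strand for Fzd7 and chr5:4758217-4758466 on the minus strand for Fzd1.
Wnt7a: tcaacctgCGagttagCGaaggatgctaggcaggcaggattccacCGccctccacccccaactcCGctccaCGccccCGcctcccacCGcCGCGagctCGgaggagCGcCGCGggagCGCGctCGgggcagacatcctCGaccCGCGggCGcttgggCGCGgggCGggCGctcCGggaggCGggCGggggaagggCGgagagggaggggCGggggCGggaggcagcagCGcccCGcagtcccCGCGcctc
Fzd7: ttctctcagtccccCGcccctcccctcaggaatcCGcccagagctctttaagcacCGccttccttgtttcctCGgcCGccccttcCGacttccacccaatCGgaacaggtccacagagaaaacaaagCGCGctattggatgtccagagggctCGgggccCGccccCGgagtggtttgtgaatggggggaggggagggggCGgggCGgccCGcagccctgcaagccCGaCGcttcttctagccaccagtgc
Fzd1: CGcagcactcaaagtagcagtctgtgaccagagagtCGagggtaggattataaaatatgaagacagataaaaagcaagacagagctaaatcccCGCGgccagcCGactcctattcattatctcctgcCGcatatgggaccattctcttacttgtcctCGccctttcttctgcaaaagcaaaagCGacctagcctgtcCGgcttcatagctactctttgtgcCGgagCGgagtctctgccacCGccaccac

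The window of Wnt7a was the richest of the 4 in CpG. It held 34 CpG dinucleotides and 77.6% G and C, and 96.5% of the 32851 RefSeq windows of this length held fewer CpG. Fzd7 had 17 CpG and Fzd1 had 12, against a median of 6 over all windows, and Axin2 (chr11:108920099-108920348, plus strand) had 24. Searched on both strands, CTTTGA, a form of the TCF/LEF core, occurred once in the window of Fzd1 and in no other of the 4. CTTTGA occurred in 13.8% of all windows. Other forms of the core were not counted. Among them, CTTTGT stands in the printed window of Fzd1 and, as ACAAAG, in that of Fzd7. The AP-1 motif TGANTCA was in none of the 4 and in 6.75% of all windows, and TATAAA was in that of Fzd1 and in 12.4% of all. These matches describe letters in a window and do not locate a bound site.

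BRM014 changed 5 of the 8 tested genes at 6 h and 5 at 30 h. At 6 h, 3 rose (Fzd1, Fzd2 and Lrp6) and 2 fell (Wnt7a and Fzd7), and among all tested genes 23.8% passed the test, 9.35% higher and 14.4% lower. At 30 h, 2 rose (Wnt7b and Fzd2) and 3 fell (Wnt7a, Fzd1 and Fzd7), and among all tested genes 35.9% passed, 16.8% higher and 19.1% lower. Over the 8 genes the median log2 fold change was 0.061 at 6 h and -0.28 at 30 h, beside -0.012 and -0.00457 over all tested genes. Changes are given as log2 fold changes ± standard error between 2 and 2 libraries, with p adjusted by Benjamini-Hochberg over all tested genes in edgeR's quasi-likelihood fit, and 0.05 as the threshold. The comparisons at 6 h and at 30 h have no library in common.

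**Figure D1:**
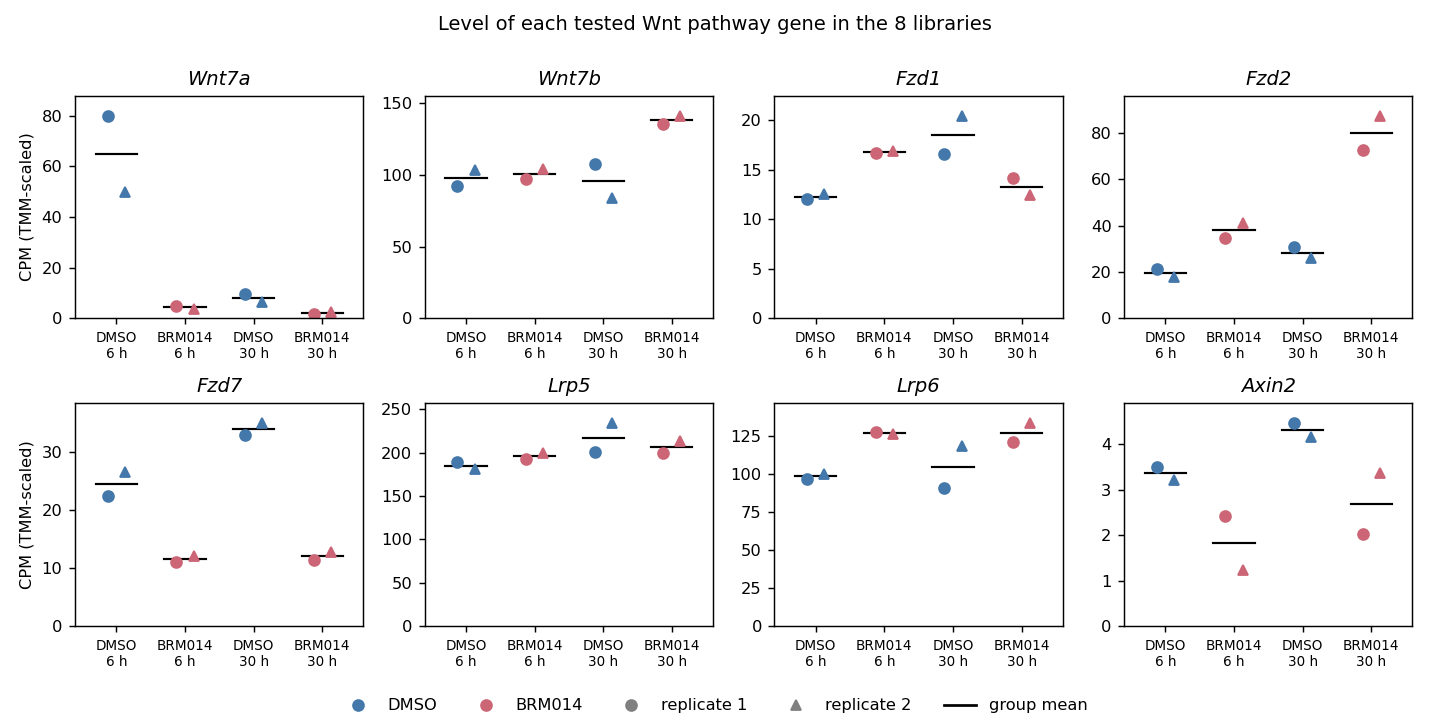
Level of each of the 8 tested genes in CPM (linear axes from 0) in the 8 libraries, with DMSO in blue, BRM014 in red, circles and triangles for replicates 1 and 2, and lines for the group means. Wnt7a stands at 79.9 and 49.9 CPM in DMSO at 6 h and at or below 9.84 in the other 6 libraries, and Fzd2 and Fzd7 separate by treatment in opposite directions.

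Wnt7a, a ligand that can act through canonical and other branches, had the largest change among the 8 genes. It was at 79.9 and 49.9 CPM in the libraries of DMSO at 6 h and at 5.03 and 3.88 CPM in those of BRM014 at 6 h. At 30 h it was at 9.84 and 6.39 CPM in DMSO and at 1.66 and 2.71 CPM in BRM014. The 2 BRM014 libraries lay below both DMSO libraries at each time, and the lowest group rested on 31 and 83 counts. With BRM014 Wnt7a fell 14.6-fold at 6 h (log2 fold change -3.87 ± 0.27, adjusted p = 6.75e-07) and 3.55-fold at 30 h (-1.83 ± 0.31, adjusted p = 0.000489). Both calls held in 18 of 18 alternative settings.

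The Wnt7a level in DMSO also fell with time in culture, and in the vehicle at 30 h it stood nearer to the inhibited cells at 6 h than to the vehicle at 6 h. Between 6 h and 30 h in DMSO it fell 8.06-fold (-3.01 ± 0.26, adjusted p = 9.48e-06), and under BRM014 1.95-fold (-0.97 ± 0.33, adjusted p = 0.0344). The call under BRM014 was lost with DESeq2 (adjusted p = 0.0627), limma-voom (0.136) and counts thinned to 1 depth (0.0756). It was also lost without BRM014 6 h replicate 1 (log2 fold change -0.78), BRM014 6 h replicate 2 (-1.15) or BRM014 30 h replicate 1 (-0.71). The inhibitor effect itself was smaller at 30 h, with a difference between the effects of 2.05 ± 0.42 (adjusted p = 0.0108). That call was lost without replicate 1 of DMSO at 6 h (1.63, adjusted p = 0.0538), replicate 2 of BRM014 at 6 h (1.86, 0.0555) or replicate 2 of BRM014 at 30 h (1.61, 0.174). The time comparison in DMSO shares its libraries with both inhibitor comparisons, so these values are not independent of each other.

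Summed markers of basal or myoepithelial cells followed the same order of groups as Wnt7a, carried mainly by Krt14 except in BRM014 at 30 h. The summed level of the 8 markers on that list, of which Krt14 alone had enough counts to be tested, was 9.41 to 13.3 CPM in DMSO at 6 h and 0.981 to 2.41 in BRM014 at 6 h. At 30 h it was 3.63 to 8.64 CPM in DMSO and 0.130 to 0.321 in BRM014. Of the 8 markers, 2 were at 0 in DMSO at 6 h, none in DMSO at 30 h, and 4 in each BRM014 group. Krt14 had 413 counts in DMSO and 65 in BRM014 at 6 h, and 218 and 3 at 30 h. Krt5 went the same way from few counts (15 and 1 at 6 h, 4 and 0 at 30 h). Other markers did not follow this order: Trp63 had counts only in DMSO at 30 h (11), and Cnn1 had 1 and 3 at 6 h and 2 and 3 at 30 h. The summed levels of leukocyte and fibroblast markers were low throughout and lower in BRM014 at both times. The leukocyte sum was carried mainly by Cd68, and the fibroblast sum by Col1a1 and Pdgfra. In BRM014, Pdgfra was above Col1a1, which had mean levels of 0.158 CPM at 6 h and 0.410 at 30 h. The 8 leukocyte markers summed to 6.96 to 8.11 CPM in DMSO and 4 to 5.41 in BRM014 at 6 h, and to 3.85 to 6.36 and 2.28 to 2.46 at 30 h, with 3 or 4 of them at 0 in each group. Most of this was Cd68 (290 counts in DMSO and 192 in BRM014 at 6 h, 195 and 108 at 30 h), whereas Lyz2, Csf1r and Itgam went the other way at 6 h, from 1, 0 and 1 counts with DMSO to 5, 4 and 3 with BRM014. The 9 fibroblast markers summed to 1.12 to 1.61 and 0.718 to 0.767 CPM at 6 h, and to 2.19 to 2.77 and 1.12 to 1.34 at 30 h, again with 3 or 4 at 0. Here Col1a1 had 28 and 7 counts at 6 h and 70 and 20 at 30 h, while Pdgfra had 0.489 and 0.393 CPM at 6 h and 0.654 and 0.696 CPM at 30 h. The part of these lists in the results for Wnt7a and the other falling genes was not tested.

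Wnt7b, the close relative of Wnt7a, did not pass at 6 h and rose at 30 h. At 6 h it was at 92.0 and 103 CPM in DMSO and at 96.6 and 104 CPM in BRM014, and these values overlapped. The change of 0.036 ± 0.12 at 6 h had a 95% interval from -0.22 to 0.29 (adjusted p = 0.862). At 30 h the values were 107 and 83.7 CPM in DMSO against 135 and 141 CPM in BRM014, and Wnt7b rose (0.53 ± 0.12, adjusted p = 0.00319) in all 18 alternative settings. The difference between its effects at the 2 times, 0.50 ± 0.17, did not pass (adjusted p = 0.0999), but it did without the filter on low counts (0.0363) and without DMSO 30 h replicate 1 (0.69, adjusted p = 0.0107). Under BRM014 Wnt7b rose from 6 h to 30 h by 0.46 ± 0.12 (adjusted p = 0.00802, lost without BRM014 6 h replicate 1 at 0.41 and 0.0876), whereas in DMSO the change was -0.037 ± 0.12 (adjusted p = 0.832). The exons of Wnt7b overlap 1 gene on the opposite strand in GENCODE vM21, as do those of Wnt5a and Axin2. The strand setting of the counting is not given, so reads from such partners cannot be told apart.

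The ratio of Wnt7a to Wnt7b counts within a library does not depend on how libraries are scaled. It was 0.869 and 0.483 in DMSO at 6 h and 0.0521 and 0.0374 in BRM014 at 6 h. It was 0.0920 and 0.0763 in DMSO at 30 h and 0.0123 and 0.0192 in BRM014 at 30 h. Both libraries of DMSO at 6 h thus had a higher ratio than the other 6. This pair, and that of Fzd2 and Fzd7 below, were chosen after their values were seen, and the ratios carry no test.

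Wnt5a and Wnt10a, known for non-canonical and canonical signalling respectively, were at the limit of detection. Wnt5a had 1 count in all, in BRM014 at 30 h replicate 1, and 0 counts over the 2 libraries of a group allow up to 0.0771 CPM in DMSO at 6 h, 0.0699 in BRM014 at 6 h and 0.0727 in DMSO at 30 h (3 counts over the group). No fold is given for it. Wnt10a had 5 and 0 counts in DMSO at 6 h, 3 and 0 in BRM014 at 6 h, 11 and 6 in DMSO at 30 h, and 0 and 1 in BRM014 at 30 h. At 30 h its level in DMSO was 20.3 times that in BRM014, with an exact 95% interval of 3.19 to 850, and at 6 h the ratio was 1.84 (0.358 to 11.8). These limits and intervals cover counting error only. In a fit without the filter on low counts Wnt10a passed at 30 h (adjusted p = 0.0142 over 15650 genes).

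Fzd2 and Fzd7, the 2 Frizzled receptors of the set with the largest changes, moved in opposite directions. Fzd2, which is known to take part in non-canonical as well as canonical signalling, was at 21.3 and 17.9 CPM in DMSO and at 34.8 and 41.4 CPM in BRM014 at 6 h. At 30 h it was at 30.8 and 26.0 CPM in DMSO and at 72.6 and 87.4 CPM in BRM014. The groups did not overlap at either time, and both BRM014 libraries at 30 h were above every other library. With BRM014 Fzd2 rose 1.95-fold at 6 h (0.96 ± 0.15, adjusted p = 0.000325) and 2.83-fold at 30 h (1.501 ± 0.14, adjusted p = 3.13e-06). The difference between these effects, 0.54 ± 0.20, did not pass (adjusted p = 0.139).

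Fzd7, a receptor known from mammary stem cells, stood at 22.5 and 26.5 CPM in DMSO and at 10.98 and 12.2 CPM in BRM014 at 6 h. At 30 h it stood at 32.9 and 35.0 CPM in DMSO and at 11.3 and 12.8 CPM in BRM014. All 4 BRM014 libraries lay below all 4 DMSO libraries. Fzd7 fell 2.11-fold at 6 h (-1.08 ± 0.14, adjusted p = 0.000111) and 2.80-fold at 30 h (-1.49 ± 0.14, adjusted p = 3.45e-06). The difference between the times, -0.41 ± 0.20, did not pass (adjusted p = 0.280). The calls of Fzd2 and Fzd7 at both times held in 18 of 18 alternative settings.

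Within each library, Fzd2 counts were 0.948 and 0.675 times those of Fzd7 in DMSO at 6 h and 3.17 and 3.40 times in BRM014 at 6 h. At 30 h the ratio was 0.934 and 0.742 in DMSO and 6.40 and 6.82 in BRM014. Fzd7 thus had more counts than Fzd2 in all 4 vehicle libraries, and Fzd2 had more in all 4 inhibited ones.

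**Figure D2:**
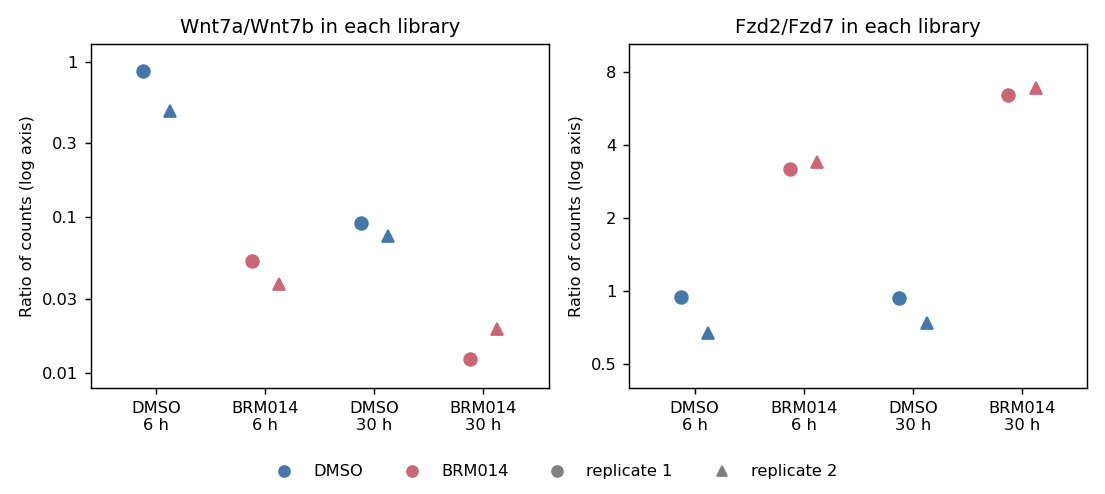
Ratio of counts of Wnt7a to Wnt7b (left) and of Fzd2 to Fzd7 (right) in each of the 8 libraries, on log axes, with DMSO in blue, BRM014 in red, and circles and triangles for replicates 1 and 2. The Wnt7a ratio is highest in DMSO at 6 h (0.869 and 0.483), and the Fzd2 ratio is below 1 in the 4 DMSO libraries and at or above 3.17 in the 4 BRM014 libraries.

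Fzd1, whose protein is closely related to those of Fzd2 and Fzd7, changed direction between the times. At 6 h it was at 12.0 and 12.5 CPM in DMSO and at 16.7 and 16.9 CPM in BRM014. At 30 h it was at 16.6 and 20.4 CPM in DMSO and at 14.2 and 12.4 CPM in BRM014. The groups did not overlap at either time, with BRM014 above DMSO at 6 h and below it at 30 h. Fzd1 rose by 0.45 ± 0.15 at 6 h (adjusted p = 0.0486) and fell at 30 h (-0.48 ± 0.15, adjusted p = 0.0241), and the difference of -0.94 ± 0.22 passed (adjusted p = 0.0205).

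The Fzd1 calls were close to the threshold. The 6 h call was lost with DESeq2 (adjusted p = 0.0547), limma-voom (0.0548), thinned counts (0.0521) and without any 1 of the 4 libraries at 6 h (0.126 to 0.193). The 30 h call was lost in a fit of the 4 libraries at 30 h alone (0.0608), without the second library of DMSO at 30 h (-0.33, adjusted p = 0.187) and without that of BRM014 (-0.38, 0.157). The call for the difference was lost without 6 of the 8 libraries, the exceptions being replicate 1 of DMSO and of BRM014 at 30 h, with adjusted p between 0.0523 and 0.0861.

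In DMSO the 3 receptors all rose from 6 h to 30 h, Fzd1 by 0.60 ± 0.15 (adjusted p = 0.00964), Fzd2 by 0.53 ± 0.15 (0.0136) and Fzd7 by 0.47 ± 0.14 (0.0165). With the fall of Wnt7a, 4 of the 8 tested genes changed with time in DMSO, and among all tested genes 35.2% did, 18.0% higher and 17.2% lower. Each receptor's call was lost without either of 2 of the 4 DMSO libraries: Fzd1 without replicate 1 at 6 h (adjusted p = 0.0569) or replicate 2 at 30 h (0.0683), Fzd2 without replicate 2 at 6 h (0.120) or replicate 1 at 30 h (0.0877), and Fzd7 without replicate 1 at 6 h (0.122) or replicate 2 at 30 h (0.0556). Under BRM014, Fzd2 rose from 6 h to 30 h (1.07 ± 0.14, adjusted p = 0.000101), and the values were -0.34 ± 0.15 for Fzd1 (adjusted p = 0.0964) and 0.066 ± 0.15 for Fzd7 (adjusted p = 0.758). In that comparison 3 of the 8 genes changed, Wnt7a, Wnt7b and Fzd2, beside 36.5% of all tested genes (19.6% higher, 16.9% lower). For the difference between the inhibitor effects, 2 of 8 passed, Wnt7a and Fzd1, beside 6.47% of all tested genes (3.89% higher, 2.59% lower).

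**Figure D3:**
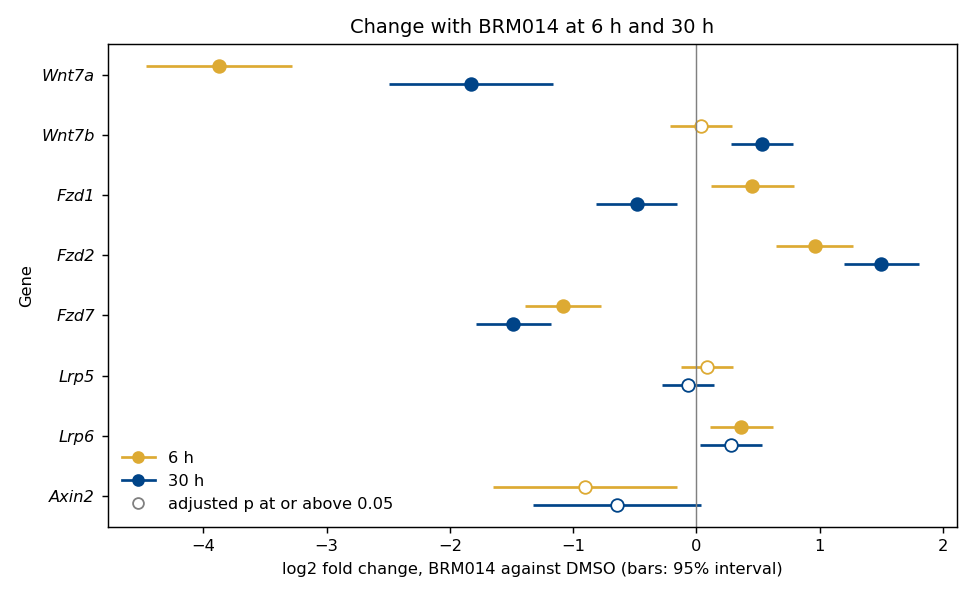
Log2 fold change of BRM014 against DMSO at 6 h (yellow) and 30 h (blue) for the 8 tested genes, with bars for the 95% intervals and open circles where the adjusted p is at or above 0.05. Wnt7a lies farthest from 0 at 6 h (-3.87), Fzd2 and Fzd7 lie on opposite sides at both times, and Fzd1 lies above 0 at 6 h and below it at 30 h.

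The co-receptors, which pair with Frizzled in the canonical branch, moved little. Lrp5 was at 189 and 181 CPM in DMSO and 193 and 200 CPM in BRM014 at 6 h, and at 201 and 234 CPM in DMSO and 200 and 214 CPM in BRM014 at 30 h. Its changes with BRM014 were 0.086 ± 0.098 (95% interval -0.13 to 0.30, adjusted p = 0.581) at 6 h and -0.071 ± 0.097 (-0.28 to 0.14, adjusted p = 0.603) at 30 h. Lrp6 was at 96.8 and 99.9 CPM in DMSO and 127 and 126 CPM in BRM014 at 6 h, and at 90.4 and 118 CPM in DMSO and 121 and 133 CPM in BRM014 at 30 h. Lrp6 rose at 6 h (0.36 ± 0.12, adjusted p = 0.0395), a call lost without any 1 of the 4 libraries at 6 h (0.119 to 0.156). Its value at 30 h was 0.28 ± 0.12 (adjusted p = 0.0793), and it passed in 5 of the 18 alternative settings. These were library totals (adjusted p = 0.0446), upper quartile factors (0.0469), no filter on low counts (0.0445), the replicate block (0.0320) and the fit without DMSO 30 h replicate 2 (0.49, adjusted p = 0.00531). The inhibitor effects at the 2 times differed by -0.16 ± 0.14 for Lrp5 (adjusted p = 0.577) and -0.083 ± 0.17 for Lrp6 (adjusted p = 0.829). Neither co-receptor passed for time in culture. The value of Lrp5 in DMSO was 0.23 ± 0.098 (adjusted p = 0.0809), which passed with library totals (0.0162), with upper quartile factors (0.0277) and without DMSO 30 h replicate 1 (0.0346).

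Axin2, a scaffold of the destruction complex and a common readout of canonical signalling, was expressed at a low level and did not pass at either time. It was at 3.51 and 3.22 CPM in DMSO and at 2.41 and 1.24 CPM in BRM014 at 6 h, from 69, 62, 47 and 29 counts. At 30 h it was at 4.46 and 4.16 CPM in DMSO and at 2.03 and 3.36 CPM in BRM014. Both BRM014 libraries were below both DMSO libraries at each time, with changes of -0.90 ± 0.34 (95% interval -1.65 to -0.16, adjusted p = 0.0768) and -0.64 ± 0.32 (-1.33 to 0.041, adjusted p = 0.133). At 6 h Axin2 passed without BRM014 6 h replicate 1 (-1.44, adjusted p = 0.0354), in the fit without the filter on low counts (0.0206) and, at the threshold, with the replicate block (0.05). The inhibitor effects of Axin2 at the 2 times differed by 0.26 ± 0.47 (adjusted p = 0.803). From 6 h to 30 h its changes were 0.35 ± 0.32 in DMSO (adjusted p = 0.408) and 0.61 ± 0.34 in BRM014 (adjusted p = 0.181).

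Set per kilobase of merged exon (GENCODE vM21), Wnt7a, Wnt7b and Lrp5 were the most abundant of the 10 in DMSO at 6 h, with mean levels of 20.5, 19.9 and 19.01 CPM per kb. The libraries of Wnt7a spanned 15.7 to 25.2 on this scale and enclosed those of the other two. Below them came Lrp6 at 7.19, then Fzd7 at 5.40 and Fzd2 at 5.35, which overlapped, then Fzd1 at 2.92, Axin2 at 0.611, Wnt10a at 0.0515 and Wnt5a at 0. In BRM014 at 6 h Wnt7b at 20.4 and Lrp5 at 20.2 CPM per kb overlapped at the top. Fzd2 at 10.4, Lrp6 at 9.25, Fzd1 at 4.003, Fzd7 at 2.55, Wnt7a at 1.40 and Axin2 at 0.331 followed without overlap between neighbours. In DMSO at 30 h Lrp5 at 22.3 and Wnt7b at 19.5 overlapped, as did Fzd2 at 7.74, Lrp6 at 7.64 and Fzd7 at 7.49, ahead of Fzd1 at 4.41, Wnt7a at 2.56 and Axin2 at 0.782. In BRM014 at 30 h the order was Wnt7b at 28.1 CPM per kb, Fzd2 at 21.8 and Lrp5 at 21.2, the last 2 overlapping. Lrp6 followed at 9.28, Fzd1 at 3.17, Fzd7 at 2.66, Wnt7a at 0.688 and Axin2 at 0.490, with Wnt7a and Axin2 overlapping. Wnt7a had thus moved from the top of the order to the level of Axin2.

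A wider list of 122 Wnt pathway genes in 8 roles placed these changes, with 121 found in the table and 72 tested. Some genes, such as Apcdd1, Rnf43 and Lgr5, have several roles and are counted in each role below. At 6 h, 10 rose and 16 fell (36.1% of those tested), and at 30 h 18 rose and 19 fell (51.4%). Without the 10 genes described above, 21 of 64 passed at 6 h (32.8%, beside 23.8% of all tested genes) and 32 of 64 at 30 h (16 higher and 16 lower, beside 35.9% of all). The median log2 fold change of the 72 was 0.014 at 6 h and -0.025 at 30 h. Higher and lower calls were therefore mixed in the pathway as a whole.

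Few ligands had enough counts to be tested, whereas most Frizzled receptors did. Of 19 Wnt genes, 4 were tested (Wnt4, Wnt7a, Wnt7b and Wnt9a), 8 had no count in any library and 7 had at most 26 counts in all. Of 10 Frizzled genes, 9 were tested and 1 had no count. Among those tested, Fzd3, Fzd8 and Fzd9 were low, with group means of at most 0.747, 0.550 and 0.545 CPM. Wnt4 was at 5.48 CPM in DMSO and 3.16 in BRM014 at 6 h and fell by 0.80 ± 0.24 (adjusted p = 0.0263), a call lost with limma-voom, with thinned counts and without any 1 of the 4 libraries at 6 h. Wnt9a rose at 30 h, from 0.703 to 2.21 CPM (1.67 ± 0.42, adjusted p = 0.00677), and did not pass without DMSO 30 h replicate 2 (adjusted p = 0.0728).

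Of the genes for Wnt secretion and extracellular activators, 3 of 7 were tested, and 2 fell at both times while none rose. That was 66.7% of the 3 at each time, beside 23.8% of all tested genes at 6 h and 35.9% at 30 h. Porcn, the enzyme that attaches the lipid to Wnt proteins, fell from 19.8 to 6.19 CPM at 6 h (-1.69 ± 0.19, adjusted p = 2.51e-05) and from 20.1 to 9.06 CPM at 30 h (-1.15 ± 0.18, adjusted p = 0.000245). Rspo3, a secreted protein that raises the number of receptors at the surface, fell from 6.07 to 1.48 CPM at 6 h (-2.01 ± 0.26, adjusted p = 0.000104) and from 16.5 to 4.69 CPM at 30 h (-1.82 ± 0.22, adjusted p = 2.59e-05). Wls, the carrier of Wnt proteins to the surface, did not pass at 6 h (0.073 ± 0.11, adjusted p = 0.688) or 30 h (0.18 ± 0.11, adjusted p = 0.234).

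Receptors and co-receptors, a list of 22 that holds Fzd1, Fzd2, Fzd7, Lrp5 and Lrp6, had 18 tested genes. Of these, 5 rose and 4 fell at 6 h (50%, beside 23.8% of all tested genes). At 30 h, 4 rose and 5 fell (50%, beside 35.9% of all). Fzd5 rose at both times, from 63.7 to 102 CPM at 6 h (0.68 ± 0.13, adjusted p = 0.00247) and from 53.5 to 81.1 CPM at 30 h (0.60 ± 0.13, adjusted p = 0.00386). Ryk, a receptor of the non-canonical branch, rose by 0.37 ± 0.09 at 6 h (adjusted p = 0.00915) and by 0.42 ± 0.09 at 30 h (adjusted p = 0.00310). Ror1, another receptor of that branch, fell at 6 h from 13.4 to 7.71 CPM (-0.81 ± 0.22, adjusted p = 0.0190). At 30 h Ror1 was at 7.12 CPM in DMSO and 5.99 in BRM014. How the Ror1 call fared under the alternatives is not given here. The R-spondin receptors differed among themselves at 30 h. Lgr4 fell from 45.0 to 23.6 CPM (-0.93 ± 0.17, adjusted p = 0.000905), and Lgr6 rose from 1.53 to 3.76 CPM (1.33 ± 0.34, adjusted p = 0.00837). Lgr5 had 123 counts in DMSO and 15 in BRM014 at 30 h (-3.28 ± 0.75, adjusted p = 0.00403). The Lgr5 call was lost with DESeq2 and without DMSO 30 h replicate 2, and that of Lgr6 without replicate 2 of either group at 30 h.

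Of the inhibitors outside and at the membrane, 5 of 19 were tested. At 6 h 1 was higher and 2 were lower (60%, beside 23.8% of all tested genes). At 30 h 1 was higher and 3 were lower (80%, beside 35.9% of all). Apcdd1, a membrane inhibitor, fell at 6 h (-0.72 ± 0.17, adjusted p = 0.00762) and again at 30 h (-0.96 ± 0.18, adjusted p = 0.00122). Rnf43, a ligase that removes Frizzled from the surface, fell at 30 h from 25.7 to 11.9 CPM (-1.11 ± 0.19, adjusted p = 0.000506). Tpbg fell at 6 h (-0.55 ± 0.13, adjusted p = 0.00868) and again at 30 h (-0.46 ± 0.13, adjusted p = 0.0144). Kremen1, which acts with DKK proteins on LRP6, rose at 6 h (0.39 ± 0.11, adjusted p = 0.0238) and again at 30 h (0.43 ± 0.11, adjusted p = 0.00809). Dkk1, Dkk2, Dkk3 and Dkk4 had no count in any library. The Apcdd1 call at 6 h was lost without replicate 1 of either group at 6 h. How the Tpbg calls fared under the alternatives is not given here.

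In the cytoplasm, 19 of 21 transducers and destruction complex genes were tested. At 6 h 2 were higher and 1 was lower (15.8%, below the 23.8% of all tested genes). At 30 h 6 were higher and 1 was lower (36.8%, near the 35.9% of all). The gene that fell at both times was Ctnnb1, which encodes beta-catenin. It was at 1847 and 1956 CPM in DMSO and at 1078 and 1014 CPM in BRM014 at 6 h, and at 2284 and 2776 CPM in DMSO and at 1083 and 1076 CPM in BRM014 at 30 h. Ctnnb1 fell by 0.86 ± 0.10 at 6 h (adjusted p = 4.32e-05) and by 1.23 ± 0.10 at 30 h (adjusted p = 1.16e-06), in all 18 alternative settings. Btrc, a subunit of the ligase that marks beta-catenin for degradation, rose at both times (0.72 ± 0.14, adjusted p = 0.00204, and 0.84 ± 0.13, adjusted p = 0.000313).

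Of the nuclear factors, 12 of 15 were tested. At 6 h 2 were higher and 2 lower (33.3%, beside 23.8% of all tested genes). At 30 h 2 were higher and 4 lower (50%, beside 35.9% of all). Ctnnbip1, an inhibitor of the contact between beta-catenin and TCF, rose from 20.7 to 40.1 CPM at 6 h (0.95 ± 0.12, adjusted p = 9.28e-05) and from 23.3 to 39.6 CPM at 30 h (0.77 ± 0.12, adjusted p = 0.000285). Tle3, a corepressor of TCF factors, fell at both times (-0.82 ± 0.12, adjusted p = 0.000224, and -1.45 ± 0.12, adjusted p = 1.10e-06). Of the TCF/LEF factors, Tcf7l2 fell at 6 h (-0.51 ± 0.14, adjusted p = 0.0185) and again at 30 h (-0.43 ± 0.14, adjusted p = 0.0311). Its 6 h call was lost without 3 of the libraries at 6 h (all but DMSO replicate 1), and its 30 h call with library totals, with the 30 h libraries alone, and without DMSO 30 h replicate 1, BRM014 6 h replicate 1 or BRM014 30 h replicate 2. Tcf7 did not pass at either time, Tcf7l1 had at most 6 counts in a library and Lef1 had counts in 1 library, where it had 2.

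Among 18 known targets of beta-catenin and TCF, Axin2 included, 10 were tested. At 6 h 2 were lower (20%, beside 23.8% of all tested genes). At 30 h 2 were higher and 3 lower (50%, beside 35.9% of all). The 3 lower at 30 h were Rnf43, Apcdd1 and Lgr5, which also stand among the inhibitors and receptors above. The 2 lower at 6 h were Ccnd1 and Apcdd1. Ccnd1 and Myc are the best known of the targets beside Axin2. Ccnd1, which encodes cyclin D1, fell at 6 h from 1823 to 1375 CPM (-0.41 ± 0.09, adjusted p = 0.00437) and rose at 30 h from 1512 to 1899 CPM (0.33 ± 0.09, adjusted p = 0.0102). Myc was at 290 and 283 CPM at 6 h (-0.037 ± 0.17, adjusted p = 0.902) and rose at 30 h from 141 to 221 CPM (0.65 ± 0.17, adjusted p = 0.00843). The Ccnd1 call at 6 h was lost without DMSO replicate 1 or BRM014 replicate 2 of that time, that at 30 h without DMSO replicate 2, and the Myc call without DMSO replicate 2 or BRM014 replicate 1 at 30 h.

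**Figure D4:**
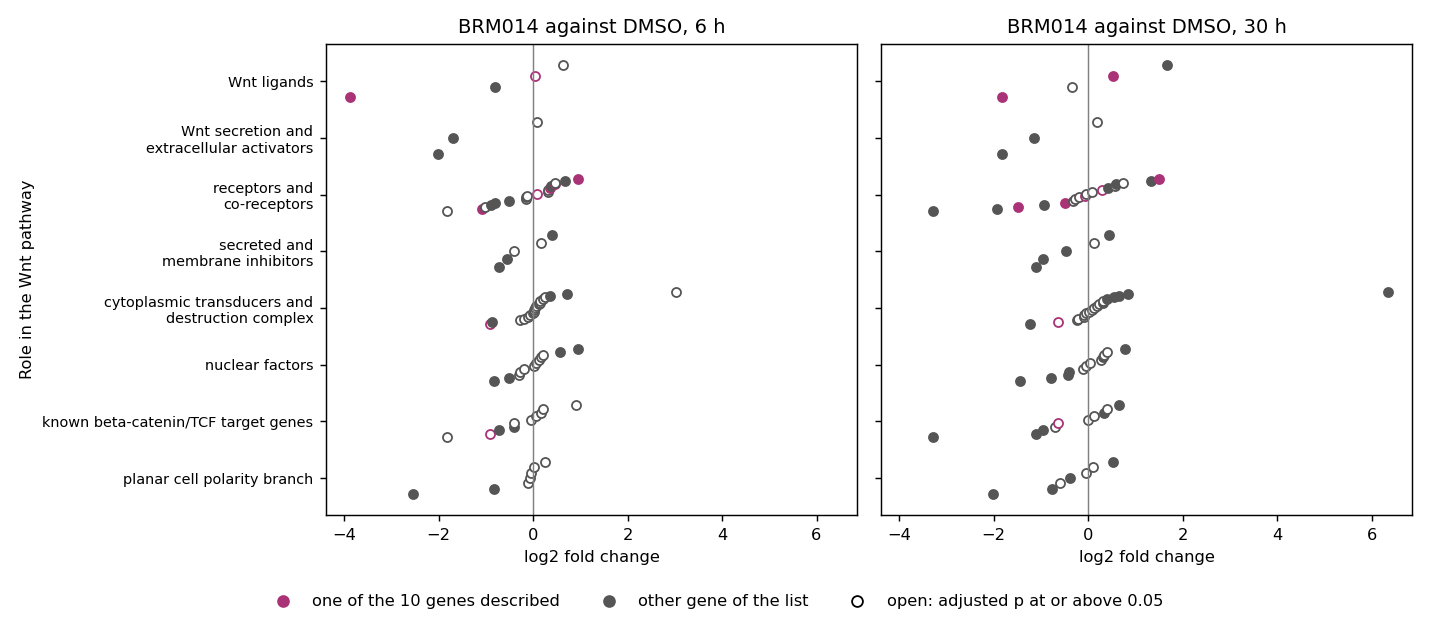
Log2 fold change of BRM014 against DMSO at 6 h (left) and 30 h (right) for the 72 tested genes of the wider list, grouped by role, with the described genes in purple, the others in grey, and open circles where the adjusted p is at or above 0.05. A gene with several roles is drawn in each of them. Calls in both directions occur among receptors at each time, and Wnt7a (-3.87) is the lowest point at 6 h.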

How the data were processed

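RNA of NMuMG cells in 4 groups of 2 libraries was measured. The authors deposited 1 table of read counts, with no normalization seen: whole numbers, with library totals that differ (17859693 to 29955366). Per the labels, total RNA was turned into stranded libraries, read from 1 end over 50 bases. The submitters' processing notes name mm9, Subread, SAMtools 0.1.19 and featureCounts; annotation and strand setting are not given in the sources used here. Of 21240 genes, 11835 (55.7%) passed filterByExpr. They were tested in R 4.3.3 with edgeR 4.0.16: TMM factors (0.935 to 1.05), 1 quasi-likelihood fit of 4 group means over 8 libraries (4 residual degrees of freedom), 2-sided tests, Benjamini-Hochberg over all tested genes, threshold 0.05. The standard error is the log2 fold change divided by the square root of F. The biological coefficient of variation was 9.30%.

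The genes and lists were chosen with earlier results of these data known. Named genes are the 10 genes; Ctnnb1, the TCF/LEF genes, Ccnd1 and Myc; up to 4 genes per role list with the smallest p at each time; and the 3 genes most like each tested gene, of which 1 is not reported here. The 122-gene list is described by counts, without a set test. Exon lengths come from GENCODE vM21 (GRCm38) and promoter windows from RefSeq, joined by symbol. The method was also run on simulated counts with the same spread for every gene and few altered genes. That setting is simpler than these data, so it gives no error rate for them. Alternatives were RLE, library totals and upper quartile factors, no filter, a stricter filter (1 CPM in 4 libraries), DESeq2 1.42.0, limma-voom (limma 3.58.1), the compared libraries alone, a replicate block, thinned counts, and leaving out each library.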

Additional observations from a re-analysis of the deposited data

Results flagged for a closer look

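Among the tested genes of the wider Wnt list, 6 had inhibitor effects that differed between 30 h and 6 h in the test of the difference itself (edgeR's quasi-likelihood fit, adjusted over all tested genes), and 2 of them, Wnt7a (2.045, adjusted p = 0.0108) and Fzd1 (-0.9389, adjusted p = 0.0205), are described in the report. The other 4 differed as follows. Lgr6, a receptor for R-spondins, fell at 6 h from 8.06 to 4.34 CPM and rose at 30 h from 1.53 to 3.76 CPM, a difference of 2.214 ± 0.45 (adjusted p = 0.0103). Its 6 h call was lost with library totals, with upper quartile factors and without 6 of the 8 libraries, and its 30 h call without replicate 2 of either group at 30 h. In DMSO Lgr6 fell from 6 h to 30 h (-2.42 ± 0.33, adjusted p = 0.000189), and the difference was not called without BRM014 30 h replicate 2 (adjusted p = 0.0532). Csnk1g1, a casein kinase 1 isoform, was at 54.8 CPM in DMSO and 52.5 in BRM014 at 6 h and rose at 30 h from 47.2 to 68.6 CPM, a difference of 0.6008 ± 0.14 (adjusted p = 0.0240), lost without 6 of the 8 libraries, with adjusted p up to 0.125.

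The fall of Tle3 was larger at 30 h than at 6 h, with 114 against 64.4 CPM at 6 h and 145 against 53.0 CPM at 30 h (difference -0.6244 ± 0.17, adjusted p = 0.0409). This call was lost without 5 of the 8 libraries, with adjusted p up to 0.224. Ccnd1 fell at 6 h and rose at 30 h, with a difference of 0.7352 ± 0.12 (adjusted p = 0.00337) that passed in all 17 alternatives. Groups of 2 libraries are too small for a check on single libraries that stand apart.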

How the results depend on the processing

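Of 712 values of the 8 tested genes under the alternatives, 643 kept direction and side of the threshold and 20 changed sign, none of them a value that passed in the reported fit. Leaving out 1 library at a time gave 1415 to 3144 called genes at 6 h (reported 2815), 3068 to 4192 at 30 h (4248), 351 to 921 for the difference (766), 2331 to 4223 for time in DMSO (4167) and 2227 to 4683 for time in BRM014 (4317). Of the 8 genes it left 3 to 5, 4 to 6, 0 to 3, 2 to 4 and 1 to 3 called, and of the 72 genes of the wider list 13 to 28, 30 to 39, 2 to 9, 12 to 26 and 8 to 26. Without the filter on low counts the difference gave 1309 genes and 12 of the wider list (6 reported). Library totals moved the median of all genes by at most 0.0898 (log2); they lowered the share of lower calls from 60.7% to 45.1% at 6 h and from 48.8% to 34.1% for time in DMSO, where upper quartile factors gave 38.4%.

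Signs changed in these cases, and the cause was not tested. Without 1 library, Wnt7b at 6 h ranged from -0.014 to 0.12, Lrp5 at 30 h from -0.17 to 0.040, the difference of Lrp6 from -0.25 to 0.093 and that of Axin2 from -0.17 to 0.80. For time in DMSO, Wnt7b was 0.054 with library totals, 0.028 with upper quartile factors and -0.23 to 0.16 without 1 library, and Lrp6 ranged from -0.095 to 0.26. For time in BRM014, Lrp6 was -0.009223 without the filter, -0.001506 with thinned counts, -0.003134 with the compared libraries alone and -0.069 to 0.072 without 1 library, and Fzd7 ranged from -0.031 to 0.14.

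The replicate block gave 3354, 4873, 1237, 4851 and 4894 called genes in the 5 comparisons, in the order above. The correlations of same-numbered libraries' deviations ran from 0.011 to 0.201, so the numbers were not taken to pair the libraries. With the block, Axin2 at 6 h (adjusted p = 0.05) and Lrp6 at 30 h (0.0320) passed.

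With 2 libraries a group the precision rests on the pooled spread. Low counts limit Axin2 (29 to 103 counts a library) and leave Wnt5a and Wnt10a without a test in the reported fit.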

Other observations

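Planar cell polarity, the non-canonical branch that orients cells within a sheet, was represented by 12 genes, of which 7 were tested. At 6 h 2 fell (28.6%, beside 23.8% of all tested genes), and at 30 h 1 rose and 3 fell (57.1%, beside 35.9%). Celsr1, an atypical cadherin of this branch, was at 64.2 CPM in DMSO and 36.1 in BRM014 at 6 h (-0.83 ± 0.11, adjusted p = 8.15e-05) and at 110 and 64.8 CPM at 30 h (-0.76 ± 0.10, adjusted p = 7.67e-05). It rose with time under both treatments, by 0.77 ± 0.11 in DMSO (adjusted p = 0.000160) and 0.84 ± 0.10 in BRM014 (adjusted p = 8.30e-05). Dact2 fell at both times from low counts (43 against 8 at 6 h and 66 against 19 at 30 h), and its calls were lost without DMSO 6 h replicate 2 or BRM014 6 h replicate 1, and without DMSO 30 h replicate 2. Vangl1, a core membrane protein of the branch, fell at 30 h (-0.39 ± 0.10, adjusted p = 0.00681), while Daam1, which links Dishevelled to actin, rose (0.52 ± 0.11, adjusted p = 0.00318).

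Genes with the most similar profile over the 8 libraries, among 9750 candidates, are given as a description, since all points come from the same libraries and groups. For Wnt7a they were Dusp7 (Pearson r = 0.986), Ptgs2 (0.984) and Tnfrsf12a (0.983). For Wnt7b they were Atat1 (0.985), Josd2 (0.976) and Rgs19 (0.972). Fzd2 was closest to Rabep2 (0.997), Kif3a (0.994) and Scx (0.992). Fzd7 was closest to Cd63 (0.995), Ucp2 (0.992) and Mindy1 (0.991). Fzd1 was closest to Hcfc2 (0.933), Rit1 (0.932) and Myo1d (0.916), and Axin2 to Pi4k2a (0.932), Pla2g7 (0.923) and Myd88 (0.915). Lrp5 was closest to Hs1bp3 (0.969), Zfp704 (0.964) and Rell1 (0.921), and Lrp6 to Yes1 (0.983) and Specc1l (0.973).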
